A study of Mus musculus with 5 samples.

Results

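Myosin light chain and myosin-binding protein genes were followed in limb muscle progenitor cells of the mouse fetus and their descendants. The set holds 10 genes chosen by symbol from the deposited expression table: Mylpf, Myl2, Myl4, Myl1, Myl6b and Myl3, which encode sarcomeric light chains, Mybpc1, Mybpc2 and Mybph, which encode myosin-binding proteins, and Unc45b, which encodes a chaperone of myosin. They are 10 of 25873 named genes in the table, and 8 of them reached the mean of 1 RPKM (reads per kilobase of the gene, relative to library size) needed for testing. Myl3 and Mybpc2 did not, and their values are given without a test.

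The cells came from C57BL/6J fetuses at embryonic day E16.5. Every group carried a Pax7-CreER allele, a tamoxifen-dependent recombinase driven from the gene of a muscle progenitor factor, together with a Rosa-tdTomato reporter. Pregnant females were given 240 mg/kg tamoxifen by mouth over 2 days from E12.5. The wild-type group (WT, 2 libraries) had no floxed Notch allele, the Notch1 cKO group (1 library) was Notch1f/f and the Notch2 cKO group (2 libraries) was Notch2f/f. Sorted cells were tdTomato-positive and lineage-negative, taken here as unstained for CD31, CD45 and Ter119. Cre acts in cells with an active Pax7 gene when tamoxifen is present. A recombined cell keeps the reporter as it differentiates, so the sort takes progenitors and their mononuclear descendants. The libraries are called by group and by the tag in the table, namely WT Em2 and Em4, Notch1 cKO Em8, and Notch2 cKO Em3 and Em4. Pairs of values below follow that order. The labels do not say whether libraries of a group came from separate fetuses, so p-values measure only the spread between these samples, which may be technical.

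Muscle myosin is a motor of heavy chains, each of which binds an essential and a regulatory light chain at its lever arm. Fast, slow and embryonic muscle use different light chain genes, and in the mouse the embryonic essential chain Myl4 is made in developing skeletal muscle and in the atria of the heart. Proteins of the MyBP family bind along the thick filament, and Unc45b, with Hsp90, folds the motor domain of the heavy chain. Notch signalling is known to hold muscle progenitors back from differentiation, during which these genes are switched on.

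Promoters of 4 members are shown because Mybph and Unc45b had the largest log2 fold changes between Notch2 cKO and WT and Myl1 and Mylpf are the fast light chain genes. Each is a RefSeq window on GRCm38.p6 from 250 bases before to 50 bases after the annotated start, written 5′ to 3′ on the gene's strand. Capitals mark E-boxes (CANNTG on either strand), the motif that Myod1 and Myog bind together with E proteins. The windows are chr1:134193198-134193497 on the plus strand for Mybph, chr11:82911003-82911302 on the plus strand for Unc45b, chr1:66945007-66945306 on the minus strand for Myl1 and chr7:127211358-127211657 on the plus strand for Mylpf.
Mybph: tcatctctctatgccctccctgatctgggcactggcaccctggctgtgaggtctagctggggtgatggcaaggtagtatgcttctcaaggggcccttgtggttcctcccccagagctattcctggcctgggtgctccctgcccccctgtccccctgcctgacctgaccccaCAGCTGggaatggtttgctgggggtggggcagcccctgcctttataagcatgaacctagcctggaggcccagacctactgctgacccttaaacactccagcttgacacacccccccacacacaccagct
Unc45b: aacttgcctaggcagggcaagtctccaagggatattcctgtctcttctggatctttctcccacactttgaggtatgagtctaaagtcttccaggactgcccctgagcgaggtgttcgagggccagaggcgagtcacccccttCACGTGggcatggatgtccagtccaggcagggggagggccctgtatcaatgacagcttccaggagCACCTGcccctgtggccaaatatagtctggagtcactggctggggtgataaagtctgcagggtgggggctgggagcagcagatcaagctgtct
Myl1: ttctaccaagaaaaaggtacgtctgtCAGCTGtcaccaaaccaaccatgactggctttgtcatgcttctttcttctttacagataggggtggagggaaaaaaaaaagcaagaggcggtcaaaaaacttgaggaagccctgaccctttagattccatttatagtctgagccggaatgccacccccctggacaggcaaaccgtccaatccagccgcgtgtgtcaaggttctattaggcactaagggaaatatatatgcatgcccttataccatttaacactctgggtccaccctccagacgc
Mylpf: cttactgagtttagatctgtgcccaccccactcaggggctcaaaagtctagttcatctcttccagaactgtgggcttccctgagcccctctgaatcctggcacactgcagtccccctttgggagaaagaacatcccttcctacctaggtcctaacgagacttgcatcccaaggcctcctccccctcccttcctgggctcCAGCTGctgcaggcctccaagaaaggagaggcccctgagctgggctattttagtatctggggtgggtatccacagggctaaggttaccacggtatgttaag
The Mybph, Myl1 and Mylpf windows each held 1 E-box, in each case CAGCTG. The Unc45b window held 2, CACGTG and CACCTG. All 10 genes had a window, and Myl2 had a further one, so there were 11. CANNTG stood in 10 of the 11 windows, those of 9 genes. It was found in 72.3% of 32851 promoter windows of the same length. The Myl4 window held none. CAGCTG, which reads the same on both strands, stood in 6 of the 11 windows, those of 5 genes, and in 16.3% of all windows. CACCTG on either strand stood in 4 of the 11 windows, those of 4 genes, and in 20.2% of all windows. CAGCTG and CACCTG are forms of CANNTG and are counted in it. A match describes the letters of a window and not the binding of a factor.

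Library totals, read back from the RPKM values, ran from 20740258 to 28827897 reads. Notch1 stood at 7.26 and 13.5 RPKM in WT Em2 and WT Em4 and at 2.33 RPKM in Notch1 cKO Em8 (log2 fold change −1.72, limma adjusted p = 0.0443), and the call was lost without WT Em4 (0.746), Notch2 cKO Em3 (0.116) or Notch2 cKO Em4 (0.120). It was also lost with no filter on low values (adjusted p = 1), libraries at the same summed RPKM (0.617), quantile normalization (0.0916), the gene length trend removed (0.456) and only the 2 groups in the fit (0.119). Notch2 stood at 2.40 and 4.17 RPKM in WT and at 3.35 and 2.03 RPKM in the Notch2 cKO libraries, and the groups overlapped. Of the named genes, between 12.7% (Notch2 cKO Em3) and 31.7% (WT Em2) were listed at 0.

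**Figure D1:**
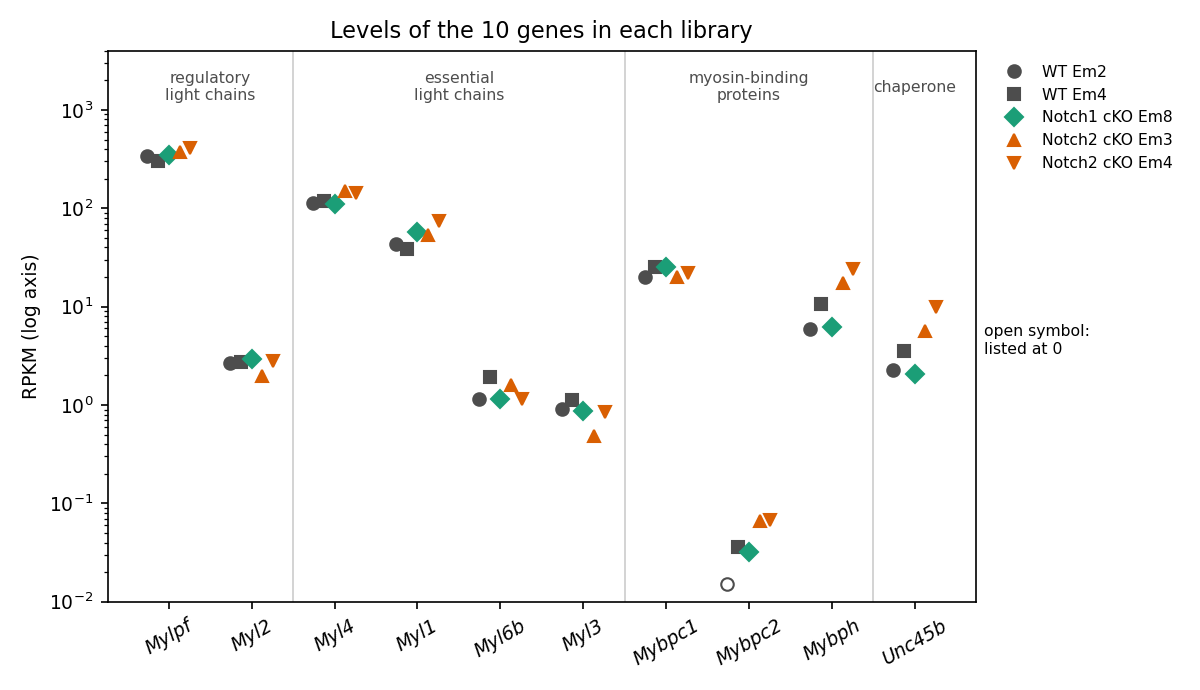
RPKM of the 10 genes in each of the 5 libraries, on a log axis, grouped by role; each symbol is 1 library and the open symbol marks a value listed at 0. Mybph and Unc45b stand higher in both Notch2 cKO libraries than in the other 3 libraries, while Mylpf, Myl4 and Myl1 hold the highest levels.

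In WT cells the 10 genes spanned from among the most abundant transcripts to near absence. By WT mean the order was Mylpf, Myl4, Myl1, Mybpc1, Mybph, Unc45b, Myl2, Myl6b, Myl3 and Mybpc2. Of neighbours in this order, the WT ranges of Unc45b and Myl2 overlapped, while those of the other neighbours did not. Mylpf stood above 98.45% of named genes in WT, Myl4 above 95.9%, Myl1 above 91.0%, Mybpc1 above 86.4%, Mybph above 76.5% and Mybpc2 above 31.1%. The median absolute log2 difference between the WT libraries was 0.26 for the 8 tested genes and 0.32 for all genes tested, and between the Notch2 cKO libraries it was 0.31 and 0.26. These levels are per kilobase of gene length and come from bulk cells, in which fewer cells of a type and less RNA per cell cannot be told apart.

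Mylpf encodes the fast skeletal regulatory light chain (chromosome 7, 127208890 to 127214298, plus strand, GRCm38 in GENCODE M21). It was at 339 and 299.95 RPKM in the WT pair, 348 RPKM in the Notch1 cKO library, and 377 and 409 RPKM in the Notch2 cKO pair. Both Notch2 cKO libraries were above both WT libraries. The WT mean was 319 ± 27.6 RPKM (SD, n = 2) and the Notch2 cKO mean 393 ± 22.6 (SD, n = 2). Notch2 cKO over WT gave a log2 fold change of 0.30 (95% interval −0.26 to 0.86, limma adjusted p = 0.833), so it did not pass the threshold of 0.05. Myl2, the slow and ventricular regulatory light chain (chromosome 5, 122100951 to 122113472, plus strand), was much lower, at 2.65 and 2.76 RPKM in WT, 2.97 in the Notch1 cKO library and 1.98 and 2.79 in the Notch2 cKO pair. Its Notch2 cKO and WT values overlapped (log2 fold change −0.14, 95% interval −0.77 to 0.49, limma adjusted p = 0.938). Between 26 and 51 reads lay behind each of its values. Myl2 overlaps Ccdc63, listed at no more than 0.253 RPKM.

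Myl4, the embryonic and atrial essential light chain (chromosome 11, 104550663 to 104595753, plus strand), was the most abundant essential chain. It stood at 113 and 119 RPKM in WT, 111 in the Notch1 cKO library, and 151 and 143 in the Notch2 cKO pair. WT libraries averaged 116 ± 3.83 RPKM (SD, n = 2), and every Notch2 cKO value was above both WT values while the Notch1 cKO value was just below them. The log2 fold change of Notch2 cKO over WT was 0.34 (95% interval −0.18 to 0.86, limma adjusted p = 0.795). Per length, Myl4 exceeded the fast chain Myl1 in every library. The ratio of their RPKM was 2.61 and 3.06 in WT, 1.92 in the Notch1 cKO library and 2.84 and 1.95 in the Notch2 cKO pair, with overlap between the WT and Notch2 cKO values.

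Myl1 encodes the fast skeletal essential light chain (chromosome 1, 66924295 to 66945404, minus strand), and its isoforms share 1 row of the table. It was at 43.4 and 38.9 RPKM in WT, 57.7 in the Notch1 cKO library and 53.4 and 73.5 in the Notch2 cKO pair. All 3 knockout libraries were above both WT libraries. The change of Notch2 cKO over WT was 0.60 on the log2 scale (95% interval 0.07 to 1.12), with a limma adjusted p of 0.562, and that of Notch1 cKO was 0.48 (SE 0.32, adjusted p = 1). Neither passed over all genes. The Notch2 cKO mean was 63.4 ± 14.2 RPKM (SD, n = 2), and the Notch1 cKO value lay between its libraries.

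The slow essential light chains were near the lower limit. Myl6b (chromosome 10, 128494157 to 128498685, minus strand) was at 1.16 and 1.92 RPKM in WT, 1.14 in the Notch1 cKO library and 1.6 and 1.15 in the Notch2 cKO pair. Myl3, shared by slow muscle and the ventricle (chromosome 9, 110741861 to 110769798, plus strand), was at 0.912 and 1.12 RPKM in WT, 0.872 in the Notch1 cKO library and 0.483 and 0.850 in the Notch2 cKO pair. Both Notch2 cKO values of Myl3 were under both WT values, and those of Myl6b overlapped with WT (log2 fold change −0.09, 95% interval −0.68 to 0.51, limma adjusted p = 0.960). Between 9 and 45 reads lay behind these values. Myl3 overlaps Pth1r, a receptor gene at 0.993 to 2.37 RPKM, and the kit does not mark strand, so reads of the overlap cannot be told apart.

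**Figure D2:**
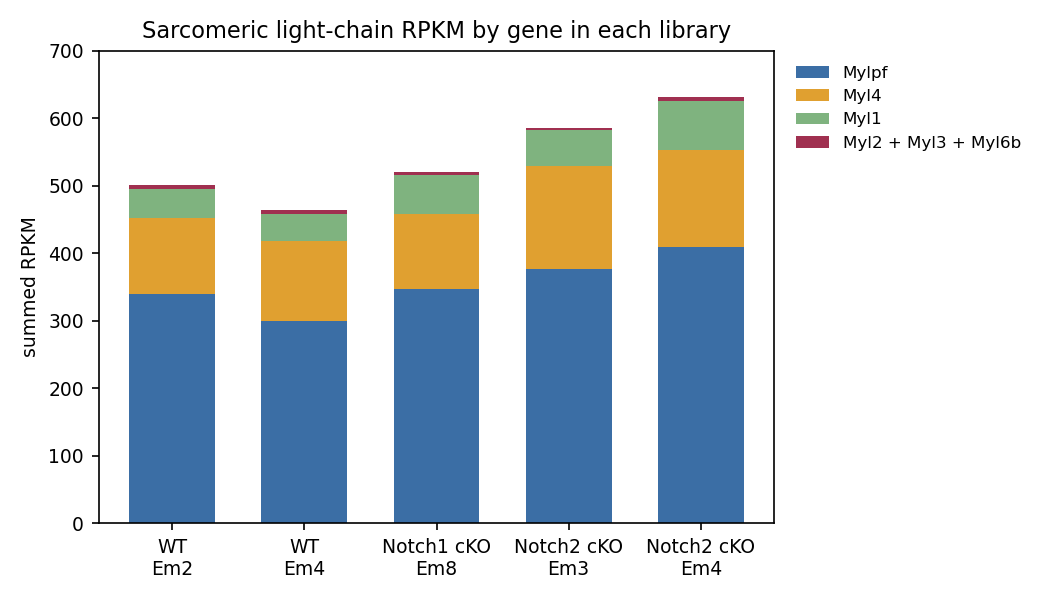
Summed RPKM of the 6 sarcomeric light chain genes in each library, stacked by gene; the sum runs from 463 in WT Em4 to 631 in Notch2 cKO Em4. Mylpf takes 64.4% to 67.7% of every bar, and Myl2, Myl3 and Myl6b are the thin top band.

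Fast and embryonic chains made up nearly all of the sarcomeric light chain RNA in every library. The slow chains Myl2, Myl3 and Myl6b together took 0.944% and 1.25% of the summed light chain RPKM in WT, 0.957% in the Notch1 cKO library, and 0.693% and 0.760% in the Notch2 cKO pair. Both Notch2 cKO shares were below the other 3. The summed light chain RPKM in the denominator was 500 and 463 in WT, 521 in the Notch1 cKO library and 586 and 631 in Notch2 cKO. With the gene length trend removed the slow share was 0.842% and 1.29% in WT and 0.904% in the Notch1 cKO library. It was 0.723% and 0.821% in the Notch2 cKO pair. Mylpf took between 64.4% and 67.7%, Myl4 between 21.2% and 25.8% and Myl1 between 8.39% and 11.7%. The non-sarcomeric light chains Myl6, Myl9, Myl12a and Myl12b, which serve contraction outside the sarcomere, summed to 821.5 and 615.5 RPKM in WT, 870.2 in the Notch1 cKO library and 716 and 652 in the Notch2 cKO pair. Sarcomeric chains were therefore 37.9% and 42.95% of all light chain RPKM in WT, 37.4% in the Notch1 cKO library and 45.0% and 49.2% in the Notch2 cKO pair, which stood highest. The exact 95% binomial interval of the slow share of light chain reads was 0.727% to 1.11% for WT Em2, 1.02% to 1.502% for WT Em4, 0.728% to 1.09% for Notch1 cKO Em8, 0.538% to 0.874% for Notch2 cKO Em3 and 0.584% to 0.860% for Notch2 cKO Em4. The interval of WT Em2 overlapped with those of both Notch2 cKO libraries and that of WT Em4 with neither, and the difference in share was not tested. These intervals cover counting error only. With 2 libraries on each side, the smallest p of an exact permutation test is 0.333.

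Mybpc1, the slow skeletal MyBP-C (chromosome 10, 88518279 to 88605152, minus strand), was at 19.9 and 25.6 RPKM in WT, 25.4 in the Notch1 cKO library and 20.1 and 22.2 in the Notch2 cKO pair. The groups overlapped (log2 fold change of Notch2 cKO over WT −0.09, 95% interval −0.64 to 0.46, limma adjusted p = 0.958). The fast MyBP-C gene Mybpc2 (chromosome 7, 44501699 to 44524656, minus strand) had 0, 3, 3, 5 and 7 reads in WT Em2, WT Em4, Notch1 cKO Em8, Notch2 cKO Em3 and Notch2 cKO Em4. Of the reads of Mybpc1 and Mybpc2 together, Mybpc2 held 0% in WT Em2 (exact 95% binomial interval 0% to 0.190%). The share was 0.129% in WT Em4 (0.0266% to 0.376%) and 0.116% in Notch1 cKO Em8 (0.0240% to 0.339%). Mybpc2 held 0.30% in Notch2 cKO Em3 (0.0975% to 0.699%) and 0.275% in Notch2 cKO Em4 (0.110% to 0.565%). Both Notch2 cKO shares were above the other 3, each value rests on at most 7 reads, and the difference was not tested.

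Mybph, the short myosin-binding protein H of the thick filament (chromosome 1, 134193448 to 134201232, plus strand; its promoter is printed above), rose in Notch2 cKO. It was at 5.87 and 10.7 RPKM in WT, 6.21 in the Notch1 cKO library and 17.5 and 24.3 in the Notch2 cKO pair, from 262 to 1280 reads. Notch2 cKO libraries stood above all 3 others, and the WT mean of 8.27 ± 3.40 RPKM (SD, n = 2) compared with 20.9 ± 4.81 (SD, n = 2), a 2.53-fold ratio. Its log2 fold change over WT was 1.27 (SE 0.31, 95% interval 0.66 to 1.88, limma adjusted p = 0.0253). Against Notch1 cKO Em8 it was 1.58 (SE 0.38, adjusted p = 0.0219). Per length, its ratio to Mybpc1 was 0.294 and 0.418 in WT, 0.245 in the Notch1 cKO library and 0.869 and 1.10 in the Notch2 cKO pair. The limma call against WT was lost without WT Em2 (adjusted p = 1), Notch2 cKO Em3 (0.0674) or Notch2 cKO Em4 (0.897), and the call against Notch1 cKO was lost without Notch2 cKO Em4 (0.702). The call against WT was also lost with no filter on low values (0.730), libraries at the same summed RPKM (0.0740), quantile normalization (0.196), the gene length trend removed (0.420) and voom on the recovered reads (0.182). Under the same 5 settings the call against Notch1 cKO was lost as well (adjusted p from 0.0975 to 0.860). The log2 fold change over WT lay between 0.89 and 1.65 in all 16 alternatives. Of all genes, 41 were called higher against WT as reported. With no filter or with voom 0 were, with the length trend removed 2, with quantile normalization 3 and at the same summed RPKM 26. Adora1, an adenosine receptor gene on the other strand, overlaps Mybph over 2010 bases, and without strand its reads there cannot be told apart from those of Mybph. Adora1 was at 0.488 and 0.802 RPKM in WT, 0.683 in the Notch1 cKO library and 1.67 and 1.58 in the Notch2 cKO pair, where it was highest as Mybph was (log2 fold change 0.68, limma adjusted p = 0.533); its part in the result was not tested.

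Unc45b (chromosome 11, 82910550 to 82943403, plus strand) encodes the chaperone that folds the myosin motor domain, and its promoter is printed above. On the other strand it overlaps Unc45bos over 8480 bases, a gene with no row under that name in the table, and Slfn5os over 1063 bases, listed at no more than 0.504 RPKM. Without strand, reads of these overlaps cannot be told apart from those of Unc45b. Its level was 2.25 and 3.56 RPKM in WT, 2.08 in the Notch1 cKO library and 5.62 and 9.97 in the Notch2 cKO pair, from 189 to 1021 reads. The Notch2 cKO values were above both WT values and Notch1 cKO was below them. The WT mean of 2.90 ± 0.927 RPKM (SD, n = 2) compared with 7.80 ± 3.08 (SD, n = 2), a 2.68-fold ratio. The log2 fold change over WT was 1.15 (SE 0.33, 95% interval 0.50 to 1.80, limma adjusted p = 0.0975), and over Notch1 cKO it was 1.47 (SE 0.40, adjusted p = 0.0685), so neither passed. Without WT Em4 the former passed (limma adjusted p = 0.0385, log2 fold change 1.39), and with median-of-ratios scaling the latter did (0.0134, log2 fold change 1.35). The change over WT was smallest without Notch2 cKO Em4 (0.78, adjusted p = 1), and was 0.90 both without WT Em2 (adjusted p = 1) and with the length trend removed (adjusted p = 0.653). Over the alternatives it passed in 1 of 15 against WT and in 1 of 14 against Notch1 cKO. Per length, the ratio of Unc45b to Mybpc1 was 0.113 and 0.139 in WT, 0.0821 in the Notch1 cKO library and 0.279 and 0.45 in the Notch2 cKO pair.

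**Figure D3:**
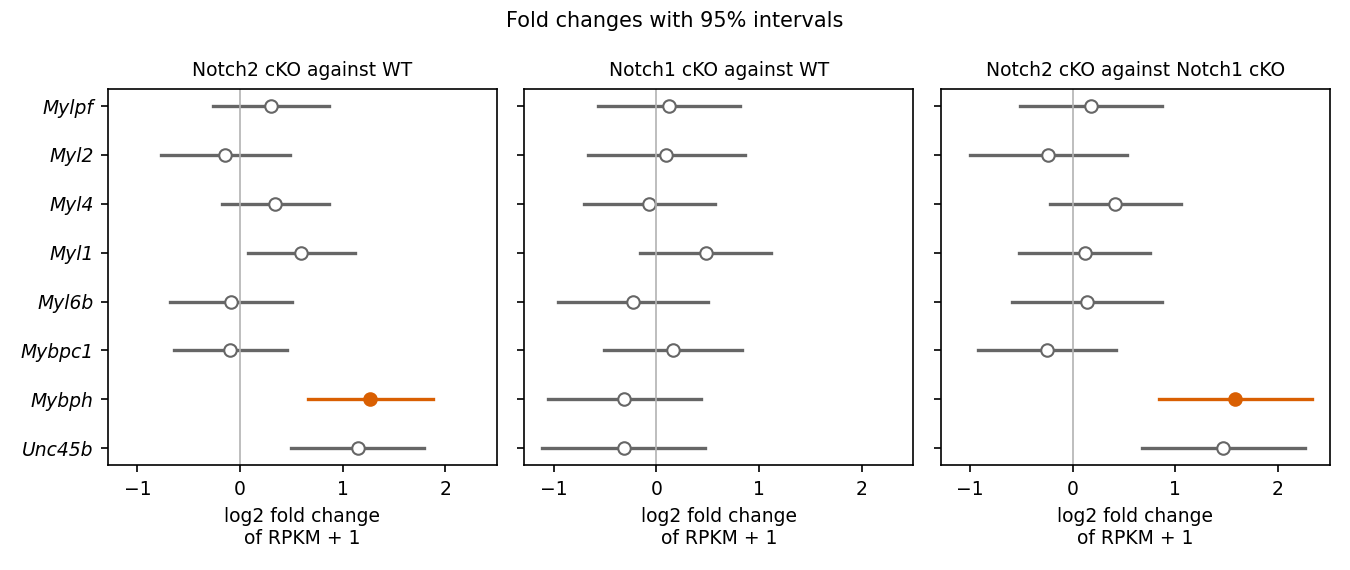
Limma log2 fold changes of RPKM + 1 for the 8 genes tested in the 3 comparisons, as points with 95% intervals; filled points passed the adjusted threshold of 0.05. Mybph is filled in both comparisons of Notch2 cKO, and no gene is filled in Notch1 cKO against WT.

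Across the 8 genes tested, limma called 1 higher in Notch2 cKO against WT and 0 lower, where it called 0.355% of all 11543 genes tested higher and 0.182% lower. At an unadjusted p under 0.05, 3 of the 8 (Mybph, Unc45b and Myl1) were higher and 0 lower, against 5.25% and 2.38% of all genes. Voom on the recovered reads called 0 of the 8, and of all 11543 genes 0 higher and 1 lower. Both Notch2 cKO libraries lay above both WT libraries for 5 of the 8, Mybph, Unc45b, Myl1, Myl4 and Mylpf, as they did for 28.3% of all genes, and below both for 0 of the 8 (9.44% of all genes). A log2 fold change above 0 was found for the same 5, a share near that of all genes, 68.1%. The median log2 fold change was 0.32 over the 8 and 0.14 over all genes tested.

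In Notch1 cKO against WT, limma called 0 of 8 higher (0.0433% of all genes) and 0 lower (0.026%). Voom called 0 of the 8, and of all 11543 genes 2 higher and 1 lower. At an unadjusted p under 0.05 there were 0 higher (1.35% of all genes) and 0 lower (0.494%). The Notch1 cKO library was above both WT libraries for 3 of the 8, Mylpf, Myl2 and Myl1 (24.3% of all genes), and below both for 3, Myl4, Myl6b and Unc45b (26.1%). A positive log2 fold change was found for 4 of the 8 and for 51.5% of all genes, and the median was 0.01 both for the 8 and for all genes. Mybph had a log2 fold change of −0.31 (95% interval −1.06 to 0.43) and Unc45b one of −0.32 (−1.11 to 0.47). With 1 library, these intervals assume the spread of the other groups.

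Notch2 cKO against Notch1 cKO gave 1 of 8 higher, Mybph (0.277% of all genes), and 0 lower (0.208%). At an unadjusted p under 0.05 there were 2 higher, Mybph and Unc45b (5.85% of all genes), and 0 lower (2.82%). Voom called 0 of the 8, and of all 11543 genes 5 higher and 9 lower. The Notch2 cKO pair lay above the Notch1 cKO library for 5 of the 8 (47.7% of all genes) and below it for 2, Mybpc1 and Myl2 (25.2%). The log2 fold change was above 0 for 6 of the 8 (61.8% of all genes), with a median of 0.16 beside 0.12. The 3 comparisons share libraries, so their values are set side by side and not counted as separate support.

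**Figure D4:**
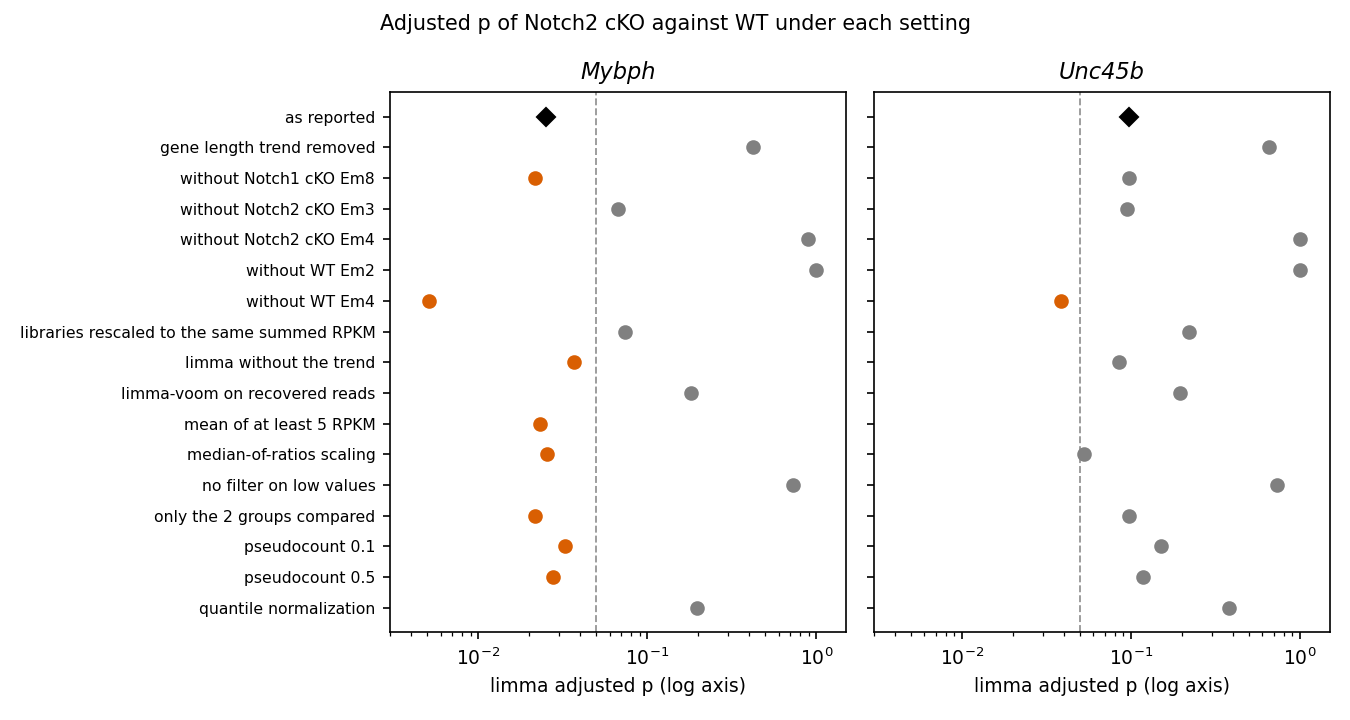
Adjusted p of Mybph and Unc45b in Notch2 cKO against WT under each processing setting, on a log axis, with the dashed line at 0.05; the diamond is the value as reported. Mybph passes in 8 of the 16 alternatives and Unc45b in 1 of the 15.

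The rest of the contractile apparatus was described with gene lists of the same roles. Their counts in Notch2 cKO against WT stand beside the 5.25% of all genes higher and 2.38% lower at an unadjusted p under 0.05, the 68.1% with a log2 fold change above 0 and the all-gene median of 0.14 given above. The sarcomeric heavy chains that light chains bind were tested for 2 of 9 genes. Embryonic Myh3 stood at 6.41 and 12.1 RPKM in WT, 7.61 in the Notch1 cKO library and 17.6 and 19.5 in the Notch2 cKO pair (log2 fold change 0.99, limma adjusted p = 0.161). Perinatal Myh8 reached 3.36 and 5.74 RPKM in Notch2 cKO over 1.67 and 3.57 in WT (0.63, adjusted p = 0.669). Neither passed, and at an unadjusted p under 0.05 1 of the 2 did. Of 19 Z-disc, M-line and titin genes tested, 1 was called higher in Notch2 cKO, Myot, a Z-disc protein, at 0.353 and 0.377 RPKM in WT, 0.975 in the Notch1 cKO library, and 1.46 and 2.59 in the Notch2 cKO pair, from 19 to 165 reads (log2 fold change 1.12, adjusted p = 0.0448). The Myot call was lost without WT Em2 (0.753), WT Em4 (0.141) or Notch2 cKO Em4 (0.763). It was also lost with a pseudocount of 0.1 (0.0650), no filter (0.730), libraries at the same summed RPKM (0.0602), quantile normalization (0.241), the length trend removed (0.571), limma without the trend (0.0831) and voom (0.0885). Unadjusted p under 0.05 held for 7 of the 19 and 18 had a positive log2 fold change, with a median of 0.43.

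Of 16 thin filament genes tested, limma called 0, 4 had an unadjusted p under 0.05 and the median was 0.25. Their most abundant member, the cardiac and fetal skeletal actin gene Actc1, had a log2 fold change of 0.44 (adjusted p = 0.823). Of the other light chain genes tested, which include Myl12b and Myl6, limma called 0 of 4 with 0 at an unadjusted p under 0.05 and a median of −0.02, and a difference from the sarcomeric chains was not tested. Of 8 myosin folding chaperone genes limma called 0, 0 had an unadjusted p under 0.05 and the median was 0.24. Among them Smyd1, a muscle methyltransferase that in zebrafish acts with Unc45b in myosin assembly, was at 1.26 and 1.47 RPKM in WT and 3.03 and 2.11 in the Notch2 cKO pair (adjusted p = 0.688). Of the myosin light chain kinase genes only Mylk4 was tested, with an adjusted p of 0.920.

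Of 16 muscle transcription factor genes limma called 0, 3 had an unadjusted p under 0.05 and the median was 0.42. Myog, a factor of differentiation, was at 1053 and 1272 RPKM in WT, 944 in the Notch1 cKO library and 1655 and 1737 in the Notch2 cKO pair (log2 fold change 0.55, adjusted p = 0.734). Pax7, the progenitor factor, was at 9.90 and 12.0 RPKM in WT, 13.4 in the Notch1 cKO library and 10.7 and 4.15 in the Notch2 cKO pair (adjusted p = 0.680). Of 15 differentiation and fusion genes limma called 0, with 2 at an unadjusted p under 0.05, and of 12 proliferation genes 0 and 1, and of 19 progenitor genes 0 and 2. In the other comparisons limma called 0 genes of these lists, and voom called 0 in all 3. Of all 11543 genes, voom called 0 higher and 1 lower in Notch2 cKO against WT. It called 2 higher and 1 lower in Notch1 cKO against WT, and 5 higher and 9 lower in Notch2 cKO against Notch1 cKO. At an unadjusted p under 0.05, Notch1 cKO against WT gave 3 of the 19 progenitor genes and 0 of the other lists. Of all genes 1.35% were higher and 0.494% lower there. Notch2 cKO against Notch1 cKO gave 8 of the 16 muscle transcription factor genes, all higher, beside 5.85% of all genes higher and 2.82% lower. Also higher were 4 of 19 Z-disc, M-line and titin, 2 of 16 thin filament, 2 of 15 differentiation and 2 of 12 proliferation genes. Of the 19 progenitor genes 3 were higher and 2 lower. Heavy chain genes gave 1 of 2 higher and chaperone genes 1 of 8 higher. Other light chain genes gave 1 of 4 lower. The lists were chosen with earlier results of these data known.

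Markers of other cells were set beside these values. Cardiomyocyte markers bear on Myl2, Myl3 and Myl4, which the heart also makes. Between 2 and 4 of the 13 were listed at 0 in each library. Actc1 (1995 to 3591 RPKM) and Tnnt2 (443 to 651 RPKM), which fetal skeletal muscle also makes, held nearly all of their summed level of 2441 to 4227 RPKM. Tnni3 was at 1.19 to 2.75 RPKM and Pln at 0.330 to 2.197 RPKM, and the remaining 9 did not exceed 0.640 RPKM in any library. Among these 9, Nkx2-5 was listed at 0 in all 5 libraries and Myl7, the atrial regulatory chain, did not exceed 0.0742 RPKM. Mybpc3, Myh6, Nppa, Tnni3, Pln, Tnnt2, Ryr2, Tbx20 and Gata4 were each highest in Notch2 cKO Em3. Mybpc3 was at 0.382 RPKM there and Myh6 at 0.317 RPKM. Nppb and Myl7 were listed at 0 in that library and highest in WT Em4, and Actc1 was highest in Notch2 cKO Em4. In Notch2 cKO Em3 12.7% of all named genes were listed at 0, compared with 24.5% to 31.7% in the others.

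Summed erythroid markers were 979 and 1219 RPKM in WT, 1749 in the Notch1 cKO library and 521 and 449 in the Notch2 cKO pair. Both Notch2 cKO sums were below those of every other library, and Mybph was highest in that pair. Within WT, WT Em4 was above WT Em2 in both the erythroid sum and Mybph. A relation between them was not tested. Interstitial fibroblast markers summed to 178 and 312 RPKM in WT, 443 in the Notch1 cKO library and 296 and 446 in the Notch2 cKO pair. Tendon and cartilage markers summed to 52.7 to 79.4 RPKM in 4 libraries and to 196 RPKM in Notch2 cKO Em4, the library with the highest Mybph, Unc45b and Myl1. Of the 13 fibroblast markers tested 8 were higher in Notch2 cKO against WT at an unadjusted p under 0.05. So were 6 of the 11 tendon and cartilage markers, beside 5.25% of all genes, and limma called 0 of either list.

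Adipocyte markers summed to 69.8 and 34.8 RPKM in WT, 62.1 in the Notch1 cKO library and 105.5 and 87.4 in the Notch2 cKO pair, so both Notch2 cKO sums were above the other 3, as Mybph was. Limma called 2 of the 4 tested higher in Notch2 cKO against WT, with a median log2 fold change of 1.06. Of all genes 0.355% were called higher and 5.25% were higher at an unadjusted p under 0.05, with a median of 0.14. Haematopoietic markers summed to 12.4 and 22.7 RPKM in WT, 13.8 in the Notch1 cKO library and 18.0 and 43.6 in the Notch2 cKO pair. Of the 4 tested, 1 was called higher and 3 had an unadjusted p under 0.05, with a median of 1.03, while Cd68, the most abundant, had a log2 fold change of −0.51. Schwann and neural markers summed to 3.76 and 4.59 RPKM in WT, 4.08 in the Notch1 cKO library and 7.31 and 7.45 in the Notch2 cKO pair, with 0 of 2 tested called and 0 at an unadjusted p under 0.05. Endothelial markers (21.8 to 41.1 RPKM in sum) and pericyte and smooth muscle markers (627 to 846 RPKM) had 0 called in Notch2 cKO against WT and 0 at an unadjusted p under 0.05. Of the 5 erythroid markers tested 3 were called lower (0.182% of all genes). Voom called 0 markers of every list named here in Notch2 cKO against WT, and of all 11543 genes 0 higher and 1 lower. In Notch2 cKO against Notch1 cKO, limma called 0.277% of all genes higher and 0.208% lower. It called 4 of 5 erythroid markers lower and 2 of 4 haematopoietic markers higher there. It also called 1 of 11 tendon and cartilage markers higher and 1 of 13 fibroblast markers lower. Voom called 4 of the erythroid and 1 of the haematopoietic markers in that comparison, and of all 11543 genes 5 higher and 9 lower. Notch1 cKO against WT gave 8 of 13 fibroblast markers higher at an unadjusted p under 0.05 (1.35% of all genes). Limma called 1 of them (0.0433% of all genes higher). Dissociation and heat shock genes summed to 3568 RPKM in Notch2 cKO Em3 and to 1849 to 2604 RPKM in the other 4. In Notch2 cKO against WT limma called 2 of the 13 higher, and 7 were higher at an unadjusted p under 0.05. A log2 fold change above 0 was found for 12 of them (68.1% of all genes), with a median of 0.57. Against Notch1 cKO, limma called 1 of the 13 lower and voom called 1. The part of these cell types and genes in the differences of Mybph and Unc45b was not tested.

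The column headers carry digits whose meaning the sources used here do not give. Notch2 cKO Em4 and WT Em4 share one set of digits, and Notch2 cKO Em4 exceeded WT Em4 in Mybph by 1.11 and in Unc45b by 1.27 on the log2(RPKM + 1) scale, beside an all-gene median of 0.03. Notch2 cKO Em3 and Notch1 cKO Em8 share another, and Notch2 cKO Em3 exceeded Notch1 cKO Em8 by 1.36 and 1.10, beside a median of 0.13. Each pair is 1 library against 1, with no replicate check. No WT library shares digits with Notch1 cKO Em8, so the digits and that comparison cannot be told apart, and a fit with the digits as a term leaves no residual degrees of freedom.

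The genes with a profile closest to the mean of the 8 tested members over the 5 libraries, taken from those averaging 10 RPKM or more, were Tox4, Pias1, Csnk1a1, Strada and Ubtd2, at Euclidean distances of 0.0679, 0.0768, 0.0804, 0.0814 and 0.0860 on the library-centred log2 scale. These distances describe likeness over 5 libraries only.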

How the data were processed

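Sorted cells gave 5 libraries, prepared from total RNA using a SMART-Seq v4 kit for low input and sequenced as paired ends, per the labels' protocols. The values deposited by the authors are RPKM for 27179 rows, per the file headers. Demultiplexing software (bcl2fastq 2.20.0) and the build mm10 are named in the submitters' processing notes; no aligner, counting tool or annotation is named in the sources used here. The 1306 rows without a gene name, 2.19% to 3.07% of summed RPKM, were left out. Columns carry a group but no replicate number, so each was assigned to a group only.

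Whole reads were recovered from the steps of the RPKM values and used for voom. Differences were tested with limma 3.58.1 (R 4.3.3; lmFit, then eBayes with trend) on log2(RPKM + 1), in 1 model of group means over all 5 libraries and 11543 genes averaging 1 RPKM or more, adjusted by Benjamini-Hochberg at 0.05. Fold changes on this scale understate those of low genes. The model had 2 residual and 103.8 prior degrees of freedom, and it gives the single Notch1 cKO library the spread of the rest. The script was tested on simulated data. Alternatives were pseudocounts, filters, scalings, removal of a gene length trend, voom, fits without the trend or with the groups compared alone, and leaving out each library.

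The members and lists were chosen with earlier results of these data known. Named genes were first the 10 members, 6 Notch and myogenic genes, and list genes that passed or were among the 2 most abundant in WT. The most abundant marker of other cell types and the 5 nearest profiles were named too. Smyd1, Adora1, Pth1r, Ccdc63, Slfn5os, Unc45bos and the cardiomyocyte markers other than Actc1 were chosen after their values were seen. Myl9, Myl12a, Mybphl, Myh1, Myh2 and Myh4 are list genes that are named outside these rules. Positions are from GENCODE M21 on GRCm38 and promoters from RefSeq GRCm38.p6, and both may differ from the annotation behind the table. The printed windows of Mylpf, Unc45b and Myl1 lie inside the GENCODE bounds given for these genes. Their RefSeq starts are therefore not the outermost GENCODE starts.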

Additional observations from a re-analysis of the deposited data

Results flagged for a closer look

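The Notch2 cKO and Notch1 cKO changes of Mybph differed by 1.58 on the log2 scale by the limma test of that difference (adjusted p = 0.0219). For Unc45b both Notch2 cKO libraries were above WT and Notch1 cKO Em8 was below it, a difference of 1.47 whose adjusted p of 0.0685 did not pass. For Myl4 the libraries fell the same way, with a difference of 0.41 and a limma adjusted p of 0.765. The Notch1 cKO group is 1 library.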

How the results depend on the processing

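Of the 8 genes tested, 1 was called higher in Notch2 cKO against WT. That count was 0 without a filter on low values, with libraries at the same summed RPKM, with quantile normalization, with the gene length trend removed and with voom, and ran from 0 to 2 when each library was left out. For Notch2 cKO against Notch1 cKO it was also 0 under those 5 settings, 2 with median-of-ratios scaling, and 0 to 1 when each library was left out. Over all genes tested, limma called 41 higher in Notch2 cKO against WT as reported. That number was 0 of 23440 without a filter, where 10 members were tested, and 0 with voom. It was 26 at the same summed RPKM, 3 with quantile normalization and 2 with the length trend removed. In Notch2 cKO against Notch1 cKO it was 32 as reported and 20 at the same summed RPKM. There it was 5 with quantile normalization or voom, and 0 without a filter or with the length trend removed. The cause of the lost calls was not tested. No paired analysis was possible because the columns carry no replicate number, and the header digits that pair some libraries pair no WT library with Notch1 cKO Em8. The sign of the log2 fold change of Notch2 cKO over WT reversed for Myl2 with the length trend removed (0.146; −0.315 to 0.0333 when each library was left out), for Myl6b at the same summed RPKM (0.0055) and with the length trend removed (0.0141; −0.305 to 0.131 when each library was left out) and for Mybpc1 at the same summed RPKM (0.0727; −0.264 to 0.0782 when each library was left out). For Notch1 cKO over WT, leaving out each library gave −0.0107 to 0.331 for Mybpc1 and −0.695 to 0.0695 for Mybph. For Notch2 cKO over Notch1 cKO, Myl1 gave −0.0253 with median-of-ratios scaling and −0.111 to 0.343 when each library was left out, and Myl2 gave 0.113 with the length trend removed. None of these genes was called in that comparison. The slow share of light chain RPKM was 1.10% in WT and 0.726% in Notch2 cKO with Myl6b counted as slow. With Myl6b left out of the slow chains but kept in the total it was 0.775% and 0.499%. The Mybpc2 share in Notch2 cKO was 0.315% by RPKM and 0.287% by reads. The median of all genes in Notch2 cKO against WT was 0.14 as reported, −0.04 with median-of-ratios scaling and 0.28 at the same summed RPKM, where the 8 genes had medians of 0.32, 0.11 and 0.49.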

Other observations

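The 7 sarcomeric heavy chain genes under the mean of 1 RPKM, among them the adult fast Myh1, Myh2 and Myh4, were each highest in Notch2 cKO Em3, at 0.135 to 0.417 RPKM (17 to 52 reads). Mybpc3, the cardiac MyBP-C, had 33 reads and Mybphl 14 reads in the same library, in which 12.7% of named genes were listed at 0, compared with 24.5% to 31.7% in the other 4.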
